A study of Homo sapiens with 5 samples.

Results

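Of 17311 Fra-1 peaks on chromosomes 1 to 22 and X in LM2 cells, 6643 shared no base with a MYC peak or an E2F1 peak. These regions made up 38.4% of the Fra-1 list (95% Wilson interval 37.7 to 39.1) and covered 1.06 Mb. Of the other Fra-1 peaks, 9646 overlapped E2F1 alone, 1005 overlapped E2F1 and MYC, and 17 overlapped MYC alone. LM2 is a lung-metastatic derivative of the triple-negative breast cancer line MDA-MB-231, and the labels give the cells as untreated. Chromatin was fixed with formaldehyde and precipitated with an antibody against Fra-1, MYC or E2F1, and 1 library was sequenced per factor, so no result below has a replicate and peaks of 1 library are not replicates of the cells. The series also holds an EZH2 library and the input library, and for EZH2 no peak list was used. The analysis addressed what the Fra-1 sites that stand alone in these 3 lists have in common.

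Fra-1 is encoded by FOSL1 and is a member of the Fos family. It binds DNA as a heterodimer with a Jun protein, and this dimer, called AP-1, recognises the word TGACTCA. Fos and Jun proteins act downstream of the Ras and MAP kinase pathway, and in many cells most of their sites lie away from promoters, in introns and between genes. MYC binds with MAX to the E-box CACGTG, and E2F1 is known for promoters of genes of DNA replication and the cell cycle.

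The regions were chosen from peak calls, so the distance to other factors and the Fra-1 signal itself are given as a description. The Fra-1 library held 12931227 tags after filtering, MYC 23853621, E2F1 18056168 and the shared input 10758036. The E2F1 list is the longest, with 36901 peaks against 4857 for MYC, and 6586 of the 6643 regions had an E2F1 peak as their nearest neighbour. Just inside the rule, the closest regions lay 7, 7 and 9 bp from another factor's peak, and 22 regions lay within 50 bp of one. Just outside it, the Fra-1 peaks with the smallest overlap shared 1, 1 and 3 bp. Most regions were much farther away. The gap to the nearest E2F1 peak had a median of 33206 bp (quartiles 9447 and 94553), and 1586 regions (23.9%) lay at least 100 kb from any peak of either factor, against 342 (5.15%) within 1 kb.

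The 10 regions with the largest fold enrichment are shown by 61 bases of GRCh37 around their summits, because they show both what most of these regions carry and where the exceptions lie. The plus strand is printed. Capitals mark the AP-1 word TGACTCA on either strand, and also the 3 words with 1 mismatch that were most in excess at summits, in either direction. The first of these is TGAATCA, the next is TGACTAA and the last is TGAGTAA.
IGFN1, chr1:201160933-201160993: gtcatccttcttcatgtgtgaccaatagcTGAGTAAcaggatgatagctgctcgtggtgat
between genes, chr17:75230111-75230171: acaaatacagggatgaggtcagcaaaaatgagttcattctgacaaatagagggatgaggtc
SNX9, chr6:158192167-158192227: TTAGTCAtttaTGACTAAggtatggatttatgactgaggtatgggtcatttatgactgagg
near PRLHR, chr10:120344244-120344304: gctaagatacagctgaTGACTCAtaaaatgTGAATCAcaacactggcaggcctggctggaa
near GPRIN1, chr5:176042276-176042336: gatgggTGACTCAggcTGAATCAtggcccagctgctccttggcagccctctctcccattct
HTRA3, chr4:8305483-8305543: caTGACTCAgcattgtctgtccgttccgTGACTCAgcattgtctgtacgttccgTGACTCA
FHIT, chr3:60574764-60574824: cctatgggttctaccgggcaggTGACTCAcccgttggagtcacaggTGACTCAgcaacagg
NPFFR2, chr4:72978403-72978463: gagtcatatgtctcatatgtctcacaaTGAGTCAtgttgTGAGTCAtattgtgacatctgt
COL15A1, chr9:101733634-101733694: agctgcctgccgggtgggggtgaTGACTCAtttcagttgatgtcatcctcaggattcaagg
SPART, chr13:36936595-36936655: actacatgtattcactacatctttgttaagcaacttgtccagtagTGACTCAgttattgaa

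Of these 10 windows, 7 held the exact word. The strongest region lay 1011 bp downstream of the start of IGFN1, an immunoglobulin-like and fibronectin domain gene of muscle, with a fold enrichment of 39.0 over the local input background. Its printed window held TGAGTAA, and 1 exact word lay elsewhere in the peak. The second, on chromosome 17, reached 38.1 with no exact word and none of the 3 mismatch words in its window, and the closest start site of any transcript was one of SEC14L1, 21344 bp away. The region in an intron of SNX9, a sorting nexin of endocytosis, reached 34.7 with 5 words of 1 mismatch in its window and no exact word in the whole peak. HTRA3, a secreted serine protease, and the neuropeptide receptor gene NPFFR2 each carried 5 exact words in the peak, at fold enrichments of 26.3 and 25.6. FHIT, a tumor suppressor gene at a common fragile site, carried a pair of exact words at 26.1. COL15A1, a basement membrane collagen, reached 25.0 in an intron, and SPART, the gene of spastic paraplegia protein spartin, reached 24.9 beside its antisense transcript. These 10 regions lay between 4686 bp (near GPRIN1) and 571044 bp (FHIT) from the nearest E2F1 peak.

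As a group, the regions were narrow and modest in signal. Their median width was 151 bp against 202 bp for Fra-1 peaks with E2F1 and 221 bp for those with E2F1 and MYC. Fold enrichment is the ratio of the ChIP fragment pileup at the summit to the local input background, after 1 is added to each. Its median was 7.16 (quartiles 5.69 and 9.04) against 9.24 and 10.2 in the other groups. The median −log10 q was 10.1 against 17.0 in each of the others. Because overlap with another list may depend on strength, the share of Fra-1 peaks with neither factor was computed along the range of Fra-1 fold enrichment. It fell from 57.4% (95% Wilson interval 55.1 to 59.6) in the weakest of 10 bins to 8.26% (7.05 to 9.65) in the strongest. The strongest bin began at a fold enrichment of 15.9, and 143 of its 1731 Fra-1 peaks had neither MYC nor E2F1. The part of peak strength, library depth and binding in this gradient cannot be told apart in 1 library per factor.

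Base composition ran the same way. The share of G and C within 50 bp of the summit had a median of 43.6% in these regions, 48.5% in Fra-1 peaks with E2F1 and 59.4% in those with both factors. Among all Fra-1 peaks, 65.0% (62.8 to 67.2) of the most AT-rich bin had neither factor, against 10.7% (9.35 to 12.3) of the most GC-rich bin. Over the 6643 regions, fold enrichment and G+C were only weakly related (Spearman's rho 0.13, given as a description, since all points share 1 library).

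**Figure D1:**
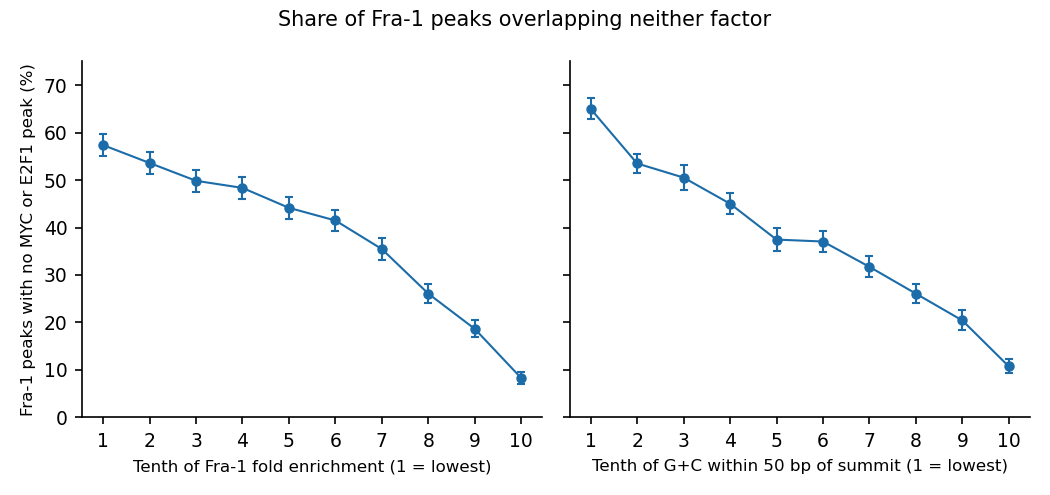
Share of Fra-1 peaks (%, vertical axis) that overlap no MYC and no E2F1 peak, in 10 bins of Fra-1 fold enrichment (left) and of G+C within 50 bp of the summit (right), from lowest to highest; bars are 95% Wilson intervals. The share falls from 57.4% to 8.26% with fold enrichment and from 65.0% to 10.7% with G+C.

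The regions were distributed unevenly over chromosomes. They made up 20.2% of the Fra-1 peaks on chromosome 19 and 26.8% on chromosome 17, where E2F1 peaks were densest at 36.8 and 28.3 per Mb. On chromosome X the share was 54.0%, on chromosome 4 it was 50.9% and on chromosome 18 it was 49.5%, where E2F1 peaks numbered 5.69, 7.28 and 6.24 per Mb. In density, chromosome 10 held the most (2.85 per Mb) and chromosome X the fewest (1.05 per Mb). On chromosome 21, 43.1% of the 72 regions held an AP-1 word. Of these 72, 15 lay in the gene TTC3, described further down, and without them 31 of 57 (54.4%) held it.

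Fra-1 sites without the other factors lay mostly in introns and between genes. A promoter was a window from 2 kb upstream to 2.5 kb downstream of any annotated transcription start site (TSS). Of the regions, 17.0% (16.1 to 17.9) touched a promoter, against 29.3% of Fra-1 peaks with E2F1, a difference of −12.2 percentage points (95% Newcombe interval −13.5 to −11.0). Against peaks with both factors, of which 60.6% touched a promoter, the difference was −43.6 points (−46.7 to −40.4). Introns held 50.4% of the regions and intergenic sequence 29.1%, which was 7.84 points (6.28 to 9.39) and 3.77 points (2.38 to 5.17) more than in Fra-1 peaks with E2F1. Exons outside promoters held 3.43%, or 0.633 points more (0.0938 to 1.19), and without the 15 regions in TTC3 this last difference was 0.505 points with an interval that included 0 (−0.0284 to 1.06). These intervals cover counting error only.

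**Figure D2:**
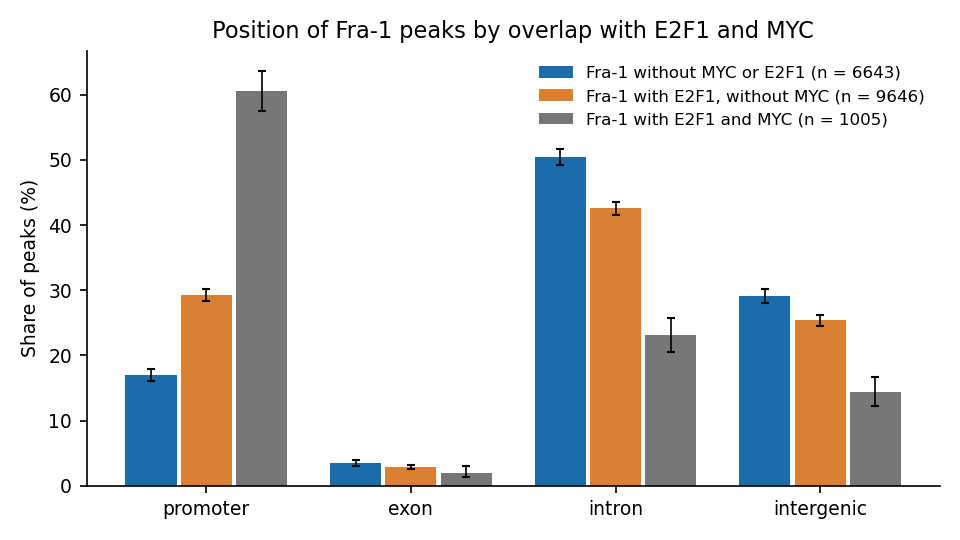
Share of Fra-1 peaks (%, vertical axis) in promoters, exons, introns and intergenic sequence, for peaks without MYC or E2F1, with E2F1 alone and with E2F1 and MYC; bars are 95% Wilson intervals. Promoters hold 17.0%, 29.3% and 60.6% of the peaks and introns 50.4%, 42.6% and 23.1%.

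The median distance from a summit to the nearest TSS was 11313 bp, against 7201 bp for Fra-1 peaks with E2F1 and 1002 bp for those with both. Within 1 kb of a TSS lay 9.17% (8.50 to 9.89) of the regions, 18.9% of the peaks with E2F1 and 49.8% of the peaks with both. Since the annotation holds 219838 start sites for 63827 genes, the canonical start sites of protein-coding genes were also examined. Of the regions, 60 (0.903%) lay within 1 kb of one, 39 of them upstream, and 60.0% of the 60 held an AP-1 word. This share was not computed for the other Fra-1 peaks. The strongest was at DHRS9, a retinol dehydrogenase gene, with its summit 62 bp upstream of the start and a fold enrichment of 15.0. ARL14, a small GTPase gene, followed with a summit 97 bp upstream and 14.5. IL6R, the interleukin-6 receptor, had a summit 880 bp downstream and 13.4, and a MYC or E2F1 peak lay 683 bp from it. ACOD1, which makes itaconate in activated macrophages, reached 12.8 and the skin lipoxygenase gene ALOXE3 reached 11.3, both without an AP-1 word within 50 bp. The windows at DHRS9 and ARL14 are printed because they place the AP-1 word directly before a start site, with capitals as above.
DHRS9, chr2:169925981-169926041: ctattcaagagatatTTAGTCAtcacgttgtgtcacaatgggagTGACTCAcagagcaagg
ARL14, chr3:160394821-160394881: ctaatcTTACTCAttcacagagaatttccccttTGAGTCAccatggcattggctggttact

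The AP-1 word was the leading sequence of these regions. Of the summits, 58.2% (57.0 to 59.3) held it within 50 bp, against 1.79% of windows of the same length 2 kb to each side and 1.09% of windows at canonical start sites of protein-coding genes. This share was higher than in Fra-1 peaks with E2F1 (51.1%, difference 7.10 points, 5.55 to 8.64) and in peaks with both factors (41.9%, difference 16.3 points, 13.0 to 19.5). The word was centred on the summit. The site nearest to the summit lay at a median of 15 bp (quartiles 7 and 27), and in 10-bp bins there were 10.4 words per 100 regions at the summit against 0.226 beyond 200 bp.

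**Figure D3:**
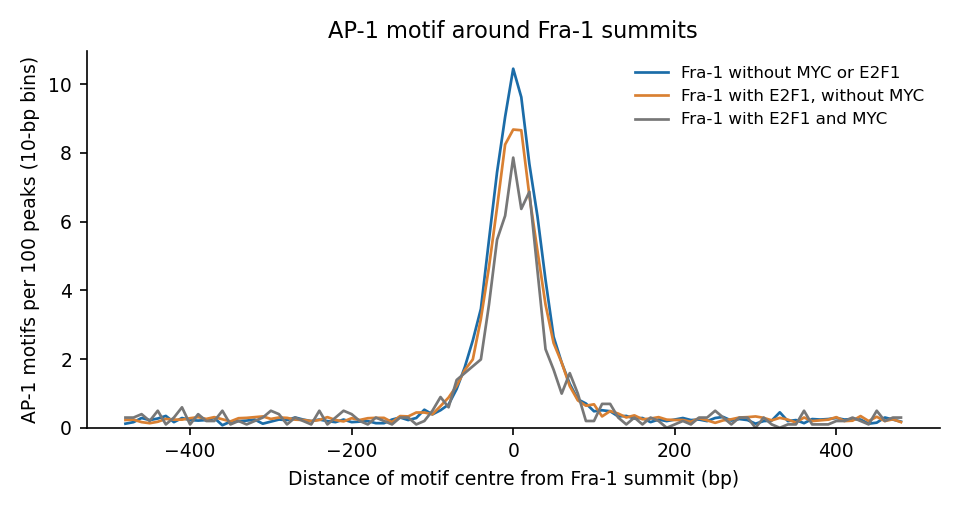
AP-1 words per 100 Fra-1 peaks (vertical axis) in 10-bp bins of distance between the centre of the word and the Fra-1 summit (horizontal axis, bp), for peaks without MYC or E2F1, with E2F1 alone and with both. At the summit the values are 10.4, 8.68 and 7.86, and beyond 200 bp the medians are between 0.199 and 0.238.

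Stronger Fra-1 peaks held the word more often, and the regions were weaker than the peaks they were compared with, so the shares were also compared at like fold enrichment. In each of 8 bins of fold enrichment the regions held the word more often than Fra-1 peaks with E2F1, and each interval excluded 0. Under a fold enrichment of 5 the shares were 49.6% and 34.2% (difference 15.4 points, 10.4 to 20.3), and at 16 and above they were 81.0% and 69.6% (11.4 points, 3.72 to 17.5). The difference was thus larger at like strength than over all peaks. In 5 bins of G+C the differences were between 7.29 and 12.9 points, and each interval excluded 0. By position, the difference was 9.61 points (6.19 to 13.0) in promoters, 8.47 (5.51 to 11.4) between genes and 5.57 (3.29 to 7.83) in introns, and 1.53 (−7.17 to 10.2) in exons, where it was not detectable at these numbers. Close to the other factors the word was less frequent. Of the 342 regions within 1 kb of a MYC or E2F1 peak 48.5% (43.3 to 53.8) held it, against 59.1% (56.6 to 61.5) of the 1586 regions at least 100 kb away. The closer regions also had a lower median fold enrichment (6.52 against 7.23) and touched promoters more often (29.5% against 10.7%). The part of strength and position in this last difference was not tested.

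**Figure D4:**
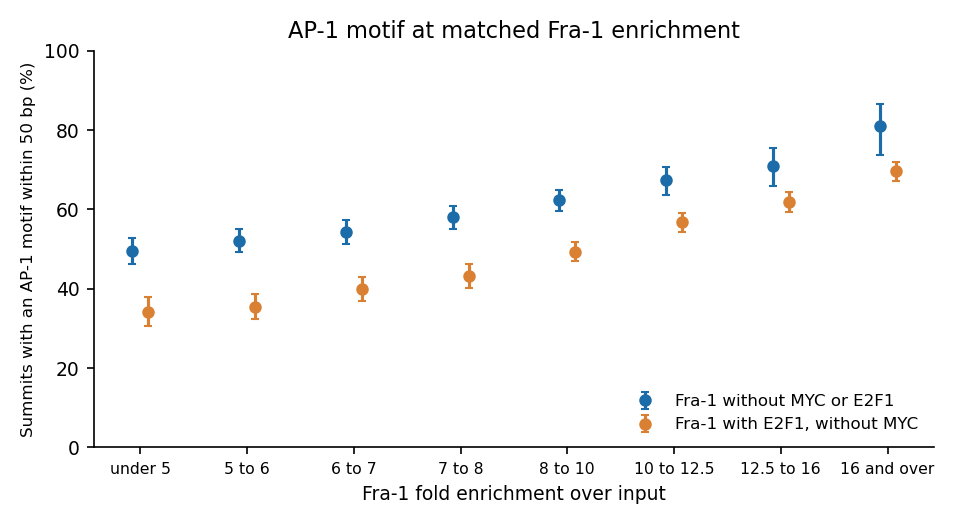
Share of Fra-1 summits with an AP-1 word within 50 bp (%, vertical axis) in 8 bins of Fra-1 fold enrichment over input (horizontal axis), for peaks without MYC or E2F1 and peaks with E2F1 alone; bars are 95% Wilson intervals. The peaks without MYC or E2F1 are higher in every bin, from 49.6% against 34.2% to 81.0% against 69.6%.

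Number and form of the word varied among the regions. Within 50 bp of the summit, 2779 regions had no exact word, 3429 had 1, 421 had 2 and 14 had 3 or more, and the median fold enrichment in these classes was 6.74, 7.25, 8.85 and 8.97. Of the 2779 without an exact word, 1477 held 1 of the 3 leading mismatch words, 531 held another word with 1 mismatch and 771 held none. The leading mismatch words were more frequent at summits than in side windows. TGAATCA was found at 16.1% of the summits against 1.96% of side windows, TGACTAA at 11.6% against 1.15%, and TGAGTAA at 8.11% against 1.45%. The remaining classes hold only windows without the exact word or a leading word, which are a smaller part of summits than of side windows. Their shares therefore do not show that the other mismatch words were rarer at summits. The class with another mismatch word only made up 7.99% of the regions and 22.2% of side windows, and the class with none made up 11.6% and 71.6%. These last regions had a median fold enrichment of 6.55, against 7.53 for regions with the exact word. The leading words were ranked on these regions, so their order is a description. With 1 base on each side, ATGACTCAT was the most frequent form, at 735 of 4282 sites (17.2%).

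A few regions were arrays of the word. In the whole called peak, 41 regions (0.617%) held 3 or more exact words, against 103 Fra-1 peaks with E2F1 (1.07%, difference −0.451 points, −0.728 to −0.163), which were also wider. However, the highest number of words in a peak was 21 in the regions, against 6 in peaks with E2F1 and 4 in peaks with both factors. Apart from the leading arrays, with 21 and 14 words, the highest number in the regions was 5. Both leading arrays lay side by side in exon sequence of the transcribed pseudogene AFG3L1P on chromosome 16. The peak at chr16:90061939-90062557 was 619 bp wide, the widest of the 6643, held 21 words and had a fold enrichment of 20.4. The peak at chr16:90061434-90061874 was 441 bp wide, held 14 words and reached 17.2. In the former, 9 of the 20 steps from word to word measured 27 bp, and the sequence matched itself best at a shift of 41 bp. Repeated spacing was also seen at HTRA3, where all 4 steps measured 26 bp, and between genes at chr9:30075452-30075875, where all 4 measured 69 bp and the fold enrichment was 9.07. The read filters kept uniquely mapping reads, and how many reads within such repeats were lost was not tested. A 164-base stretch of the peak with 21 words and of the HTRA3 peak is printed because it shows the repeat unit, with the exact word in capitals.
AFG3L1P, chr16:90062114-90062277: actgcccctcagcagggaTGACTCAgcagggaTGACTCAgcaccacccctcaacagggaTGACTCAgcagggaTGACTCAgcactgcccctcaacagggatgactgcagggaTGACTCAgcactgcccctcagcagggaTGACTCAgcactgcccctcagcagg
HTRA3, chr4:8305431-8305594: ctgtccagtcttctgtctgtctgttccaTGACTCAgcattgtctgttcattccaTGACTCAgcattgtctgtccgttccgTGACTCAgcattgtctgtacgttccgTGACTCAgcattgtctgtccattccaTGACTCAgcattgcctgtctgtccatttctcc

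Words of other factor families were compared in the same windows, 19 in all with AP-1 and searched on both strands. Against Fra-1 peaks with E2F1, 11 of 19 words (57.9%) differed in share with an interval that excluded 0, with 3 higher in the regions and 8 lower. Against peaks with both factors, 13 of 19 (68.4%) differed. SP/KLF boxes (GGGCGG), typical of CpG-rich promoters, were found at 1.11% of the regions, 5.00% of peaks with E2F1 and 14.0% of peaks with both, and at 35.9% of windows at canonical start sites. E2F words (TTTCCCGC, TTTCGCGC, TTTGCCGC and TTTGGCGC) were rare, at 8 regions (0.12%) against 44 peaks with E2F1 (0.456%, difference −0.336 points, −0.502 to −0.171). The E-box CACGTG did not differ detectably from peaks with E2F1 (1.16% against 1.09%, difference 0.0706 points, −0.253 to 0.414) but against peaks with MYC and E2F1 (8.06%) the difference was −6.90 points (−8.76 to −5.35).

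Among families that work beside AP-1 at enhancers, TEAD and ETS words were less frequent in the regions. TEAD factors are the DNA-binding partners of YAP and TAZ, and their word GGAATG was found at 10.7% of the regions against 13.8% of Fra-1 peaks with E2F1 (difference −3.13 points, −4.13 to −2.11) and 5.63% of side windows. Within the regions it was at 9.27% (8.39 to 10.2) of those with an AP-1 word and 12.6% (11.4 to 13.9) of those without. The ETS word AGGAAGT was at 4.92% against 7.17% (difference −2.25 points, −2.98 to −1.51). The MAF-extended form GCTGAGTCA, which contains an AP-1 word, was at 4.82% against 5.83% (−1.01 points, −1.70 to −0.305). The cyclic AMP response element TGACGTCA was at 0.196% against 0.394%. GATA words (AGATAA) and CCAAT boxes were 1.67 and 2.05 points more frequent than in peaks with E2F1, but both were less frequent than in side windows (5.18% against 7.35% and 13.0% against 14.2%). The words RUNX (TGTGGTT), FOX (TGTTTAC), the CpG form of ETS (CCGGAAGT), the ZEB and SNAI box (CACCTG), NRF1 (GCGCATGCG), CTCF and the glucocorticoid receptor had intervals that included 0 against peaks with E2F1. NF-kB (GGANTTTCC) was at 34 regions (0.512%) against 0.84%, and C/EBP (TTGCGCAA) at 0 of 6643 regions, which allows a share of up to 0.0452% (3 counts of 6643), against 0.0933%. G+C differs between the groups, and its part in these differences was not tested except for AP-1.

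**Figure D5:**
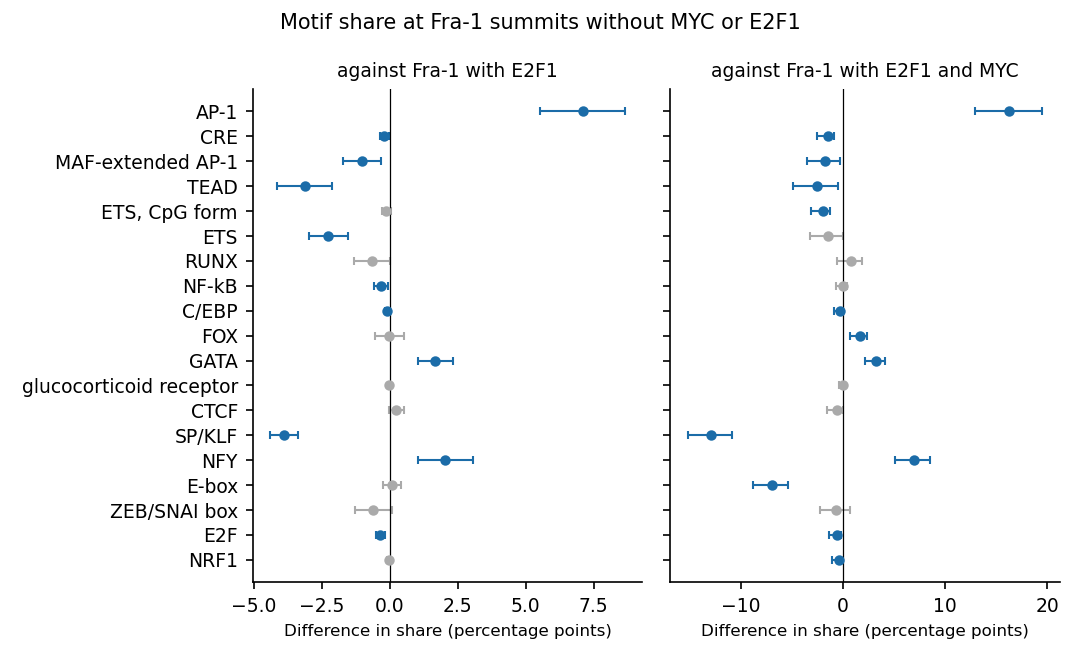
Difference in the share of summits with each word (percentage points, horizontal axis) between Fra-1 peaks without MYC or E2F1 and those with E2F1 alone (left) or with E2F1 and MYC (right), with 95% Newcombe intervals; blue points have an interval without 0. AP-1 is the most positive at 7.10 and 16.3 points, and SP/KLF the most negative at −3.88 and −12.9 points.

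The regions were assigned to genes by summits in the gene or within 10 kb. Of 20098 protein-coding genes, 3131 (15.6%) had at least 1, and 5124 (25.5%) had a Fra-1 summit shared with E2F1, while 1539 had both kinds. Gene length moved with this count, from 3.13% of the shortest bin of genes to 51.3% of the longest. Long genes led the ranking. PDE4D, a cyclic AMP phosphodiesterase gene of 1553083 bp, had 12 regions, of which 11 lay in introns and 7 held an AP-1 word. FHIT had 9, all in introns and 8 with the word, and only 1 Fra-1 peak shared with E2F1. FOXP1, a forkhead factor gene, also had 9, with 12 shared peaks, and the overlapping gene ENSG00000285708 had the same count.

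TTC3, a ubiquitin ligase gene of 129888 bp on chromosome 21 (chr21:38445526-38575413), did not follow this pattern. It held 15 regions, the most of any gene, with fold enrichments from 6.45 to 14.2 (median 9.52). All 15 summits lay in exons, although annotated exons covered 13.4% of the gene, and none of the 15 peaks held an AP-1 word. The other 6 Fra-1 peaks of the gene overlapped MYC alone (3, out of 17 such peaks in the whole list) or MYC and E2F1 (3), their summits were in exons too, and 1 of them held an AP-1 word. No other protein-coding gene had more than 2 regions in exons without the word. Over all regions, 466 summits lay in an exon of any transcript and 57.1% of them held the word, or 59.0% without TTC3. The input background at the 15 regions was between 0.375 and 1.96 fragments, within the range of the other regions. The cause of this row of exonic peaks was not tested.

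Lists of genes tied to Fra-1 or to MYC and E2F1 in breast cancer were then read against the 15.6% of all protein-coding genes. Of 16 genes of matrix proteases and the plasminogen system, 6 had a region (37.5%, Wilson interval 18.5 to 61.4). Without the 10 kb on each side it was 2 of 16, and 12.2% of all genes. MMP3 (stromelysin) and MMP10 had 3 each and no Fra-1 peak shared with E2F1. The summits upstream of MMP3 lay 2939, 5893 and 7925 bp before its start, with fold enrichments of 4.77, 7.16 and 6.16, and the 2 farther ones held an AP-1 word. A summit 33 bp upstream of the MMP10 start, with a fold enrichment of 5.92 and no AP-1 word, was also the only region within 10 kb of MMP1, the interstitial collagenase. PLAT, tissue plasminogen activator, had 1 intronic region with 9.91, and PLAUR, the urokinase receptor, 1 with 6.32. Urokinase itself (PLAU) and MMP14 had only Fra-1 peaks shared with E2F1, and MMP9 and MMP2 had neither kind. Shared peaks were found at 7 of the 16 genes (43.8%), against 25.5% of all protein-coding genes.

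In the MAPK feedback list, 3 of 13 genes had a region (23.1%, 8.18 to 50.3). DUSP5, a nuclear phosphatase of ERK, had 2, the stronger 15064 bp downstream of its start with a fold enrichment of 13.4. This stronger region held 1 exact AP-1 word within 50 bp of its summit. DUSP10 had 1 with 6.32 and no shared peak, SPRED2 had 2 up to 6.16, and DUSP1 and DUSP6 had shared peaks only. Of 8 genes of EGFR and its ligands, 3 had a region (37.5%, 13.7 to 69.4). BTC, the ligand betacellulin, had 1 with 10.6 and an AP-1 word and no shared peak. EGFR had 2 up to 7.08 beside 9 shared peaks. NRG1, a gene of 1216447 bp, had 7 up to 10.3, also beside 9 shared peaks. The strongest NRG1 region lay 128 bp from the nearest E2F1 peak. Among 12 cytokine genes, IL1B and CXCL3 had regions (16.7%, 4.70 to 44.8, near the 15.6% of all genes) and no shared peaks, while IL6, CXCL8, IL11, LIF and CSF2 had shared peaks only. Over all protein-coding genes, 1592 of the 3131 with a region had no shared peak, and 25.5% of the 20098 had a shared peak. No cytokine gene had a region without the 10 kb on each side (0 of 12). The summit at IL1B lay 207 bp upstream of its start with a fold enrichment of 6.73, 52 bp from the nearest E2F1 peak, and its window held no AP-1 word. The windows at the strongest regions of DUSP5 and BTC, and at IL1B, are printed to show these forms, with capitals as for the 10 strongest regions. The exact word at DUSP5 lies outside the printed bases.
DUSP5, chr10:112272699-112272759: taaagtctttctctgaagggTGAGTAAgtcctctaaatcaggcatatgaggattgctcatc
BTC, chr4:75694243-75694303: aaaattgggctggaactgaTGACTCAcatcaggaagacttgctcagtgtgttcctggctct
IL1B, chr2:113594533-113594593: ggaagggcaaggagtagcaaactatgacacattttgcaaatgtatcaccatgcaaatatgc

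Among 11 genes of the AP-1 family, FOSL2 (5.45) and ATF3 (9.09) had a region each (18.2%, 5.14 to 47.7, near the 15.6% of all genes). FOSL1 itself had none but 6 Fra-1 peaks shared with E2F1. Of 13 YAP and TEAD genes, YAP1, WWTR1 and TEAD1 (23.1%, 8.18 to 50.3) had 2, 2 and 3 regions, up to 10.1 at TEAD1. Their targets CCN1, CCN2, ANKRD1, AXL, AMOTL2 and AJUBA had shared peaks only, and LATS2, TEAD2, TEAD3 and TEAD4 had neither kind. Shared peaks were found at 9 of the 13 genes (69.2%), against 25.5% of all protein-coding genes. Adhesion genes had regions at 6 of 16 (37.5%, 18.5 to 61.4) and shared peaks at 15 of 16 (93.8%, against 25.5% of all protein-coding genes). ITGA5, a fibronectin receptor subunit, was the strongest with 8.82, LAMA3 followed with 8.25 among 3 regions that all held an AP-1 word, and ITGA2 reached 7.95. Of 8 genes of the mesenchymal list, CDH2, ZEB1 and ZEB2 had regions (37.5%, 13.7 to 69.4), with 10.4 at CDH2. Of 11 luminal genes, GATA3 had 1 with 11.9 and ESR1 1 with 8.18 (18.2%, 5.14 to 47.7, near the share over all genes). In these 5 lists every gene with a region also had a Fra-1 peak shared with E2F1, as had 1539 of the 3131 protein-coding genes with a region (49.2%). Median gene length, which moved with the share of genes with a region, was 77370 bp for the adhesion and 86102 bp for the mesenchymal list against 27257 bp for all genes, and its part was not tested.

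Of 25 genes of DNA replication, textbook E2F targets, 3 had a region (12.0%, 4.17 to 30.0), near the share over all genes. These 3 had no Fra-1 peak shared with E2F1, like 1592 of the 3131 protein-coding genes with a region. GINS3 carried the strongest, with a fold enrichment of 15.1 and an AP-1 word, in a promoter window 26029 bp upstream of the canonical start. CDC45 (9.33) and MCM3 (8.05) had their regions 48376 and 12689 bp downstream of the canonical start, without the word. Of 31 genes the study tied to Fra-1 through expression, 5 had a region (16.1%, 7.09 to 32.6), which is close to the share over all genes. A shared peak was found at 12 of the 31 (38.7%), against 25.5% of all protein-coding genes. PPP2R3A, a regulatory subunit of protein phosphatase 2A, had 3 intronic regions with 13.6, 9.65 and 5.19 and no shared peak. PTP4A1, a phosphatase gene, had 1 with 11.7 and an AP-1 word, also with no shared peak. Its summit lay in an annotated exon 44620 bp upstream of the canonical start. PTGES, the prostaglandin E synthase gene, had 1 with 8.12. SH3GL1 (7.82) and ADORA2B, the adenosine A2B receptor gene (3.77), had 1 each beside shared peaks.

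The median distance from a summit to the nearest summit of another region was 91052 bp. Another region lay within 10 kb for 844 regions (12.7%) and within 1 kb for 157 (2.36%). Whether the regions lay closer together or farther apart than randomly placed ones was not tested.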

How the data were processed

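The files analysed were the MACS2 peak tables of 3 antibodies (Fra-1, MYC, E2F1), each from a single LM2 library. Before deposit, reads were trimmed (Trimmomatic 0.27), mapped to unique positions of a masked hg19 (Bowtie 0.12.5) and freed of duplicates, and the authors ran MACS2 (2.0.10.20120913) with the input as control, keeping peaks with q under 0.01. Tool versions are from the submitters' processing notes and the file headers. The deposited tables give a signal (fragment pileup at the summit), fold enrichment and the −log10 of each p-value and q-value. Fold enrichment is the ratio of the pileup to the local input background, after 1 is added to each. Other factors and histone marks were not analysed here.

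Overlap needed 1 shared bp, and 9 Fra-1 peaks on other sequences were left out. Annotation was GENCODE 44 on GRCh37 (63827 genes). Canonical start sites are those of the transcript the annotation marks as such. Words were searched within 50 bp of summits. Shares have 95% Wilson intervals and differences of shares 95% Newcombe intervals, which cover counting error only, and a difference was called when its interval excluded 0. With 1 library there was no test between cultures. Medians have no test. Input background was recovered from pileup and fold enrichment and is approximate. The functions were tested on simulated data. Sequence was read with pysam (0.24.0) and intervals were computed with scipy (1.17.1) in Python (3.11.15). The regions and gene lists were chosen with earlier results of these data known. Named genes are those at the 10 strongest regions, the 5 genes with the most regions and, within each list, the genes with the strongest region. Genes without a region, genes at canonical start sites and the peaks with many words were named after their values were seen.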

Additional observations from a re-analysis of the deposited data

How the results depend on the processing

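The number of regions depended on the lists. It was 1166 (19.6% of 5957 Fra-1 peaks) with a Fra-1 fold enrichment of at least 10, 12447 (71.9%) with the E2F1 list reduced to the length of the Fra-1 list and 13424 (77.5%) with an E2F1 fold enrichment of at least 10. It was between 5954 and 6932 under the other 4 alternatives. The AP-1 and promoter differences kept their sign and an interval without 0 under every alternative tried, at 4.62 to 7.71 and −8.18 to −23.1 points. The exon difference fell to 0.505 points, with an interval that included 0, without TTC3, and both this alternative and the chromosome 21 share without TTC3 were chosen after seeing the data. The median distance to a TSS moved to 10166 and 9977 bp with the 2 shorter E2F1 lists and to 29848 bp with protein-coding start sites only. Median G+C moved to 44.6% with these E2F1 lists or the stronger Fra-1 peaks and to 42.3% within 100 bp of the summit. Of the words other than AP-1, 10 were called in the 50-bp window and 12 within 100 bp, 9 of them in both with the same sign (C/EBP was lost, and RUNX, the CpG form of ETS and the ZEB and SNAI box were gained). Counts in the gene lists moved with the rule of assignment. By nearest protein-coding start site, where 19.3% of all genes had a region, it was 11 of the 31 genes tied to Fra-1 in place of 5, 7 of 13 in the MAPK feedback list in place of 3, 5 of 8 for EGFR and its ligands in place of 3 and 6 of 8 in the mesenchymal list in place of 3. In the gene alone, where 12.2% of all genes had a region, it was 2 of 16 for the proteases in place of 6, 0 of 12 for the cytokines in place of 2 and 1 of 11 for the AP-1 family in place of 2. The other list counts stayed within 1.5 times. No paired analysis was possible because each factor has 1 library, and for the same reason no library could be left out.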
